A study of Homo sapiens with 7 samples.

Results

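The BCL2 family of apoptosis regulators was followed in 501Mel, an established human melanoma cell line, through the genes BCL2, BCL2A1, BCL2L1, MCL1, BAX, BAK1, BCL2L11, BBC3, PMAIP1 and BID. Members were taken by gene symbol, and all 10 were found among the 21305 genes of the table. All cells were puromycin-selected pools of lentivirally transduced cells in which doxycycline switched on a short hairpin RNA, a transcript that the cell cuts into a guide against a matching RNA. The control hairpin was directed at the bacterial lacZ gene (shlacZ, n = 3), and the hairpins called sh4 (n = 2) and sh8 (n = 2) were directed at the long non-coding RNA GRASLND. Total RNA was sequenced after removal of ribosomal RNA. The reads counted in the genes of the table came to 13337317 to 22855232 per library, which is less than all reads sequenced.

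Proteins of the BCL2 family decide whether the outer membrane of the mitochondrion stays intact. The guardians BCL2, BCL-XL (from BCL2L1), MCL1 and BFL1 (from BCL2A1) hold the pore-forming effectors BAX and BAK1 in check, and the BH3-only proteins BIM (from BCL2L11), PUMA (from BBC3), NOXA (from PMAIP1) and BID oppose the guardians or activate the effectors. When the effectors win, cytochrome c leaves the mitochondrion, assembles the apoptosome and starts the caspase cascade. In the melanocyte lineage, BCL2 and BCL2A1 are known targets of MITF, the lineage's master transcription factor. Much of the family is also controlled after transcription, by phosphorylation, proteolysis and protein turnover, none of which RNA levels show.

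The members that the results turned on were BCL2A1, BCL2L11 and PMAIP1. BCL2A1 lies on chromosome 15 (79960892 to 79971196, minus strand, hg38), BCL2L11 on chromosome 2 (111119378 to 111168444, plus strand) and PMAIP1 on chromosome 18 (59899996 to 59904305, plus strand), each a protein-coding gene. A window of 250 bases before to 50 bases after an annotated start was found in the RefSeq promoter table (GRCh38.p14) for 9 of the 10 members. MCL1 had no entry. Stretches upstream of a start are shown for 3 members, because BCL2A1 and BCL2L11 are members the results turn on and BAX is an effector with several copies of 1 motif. Capitals mark a letter match on either strand, to TCATGTG (the M-box letters that MITF can bind) in BCL2A1, to CACGTG (the E-box letters) in BAX and to TGTTTAC (forkhead letters) in BCL2L11.
BCL2A1 promoter, chr15:79971197-79971296, minus strand: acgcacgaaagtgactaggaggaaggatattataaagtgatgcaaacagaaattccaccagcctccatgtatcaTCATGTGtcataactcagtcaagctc
BAX promoter, chr19:48954725-48954814, plus strand: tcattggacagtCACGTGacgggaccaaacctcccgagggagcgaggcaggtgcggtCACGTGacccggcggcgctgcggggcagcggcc
BCL2L11 promoter, chr2:111120664-111120713, plus strand: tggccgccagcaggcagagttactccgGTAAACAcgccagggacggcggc

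The TCATGTG of BCL2A1 began 26 bases before the start. The same letters were found in 2.92% of the 35116 windows in the table and in no other member that had an entry. They contain the shorter CATGTG, which 11.1% of windows held and which was also found in a window of BID. BAX held CACGTG at 138, 93, 45 and 14 bases before its start, of which the first pair is shown. CACGTG is its own reverse complement, 7.26% of windows held it, and BBC3 and BID held it as well. The forkhead letters of BCL2L11, found in 3.42% of windows, began 223 bases before the start on the opposite strand. The p53 half-site consensus was found in BAK1 alone among the members, 73 bases before the start, and in 6.63% of windows. A letter match is a description of the sequence and does not show binding.

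The targeted transcript was measured first. The normalized count of a gene is its reads divided by a size factor of the library. GRASLND stood at 309, 330 and 290 normalized counts in the shlacZ libraries, at 175 and 131 in the sh4 libraries and at 227 and 163 in the sh8 libraries, so all 4 knockdown libraries lay below all 3 control libraries. A gene passed where its p from limma, adjusted over all 15420 tested genes, was under 0.05. The log2 fold change of GRASLND was −0.85 (SE 0.19, adjusted p = 0.0402) for both hairpins together, −1.02 (SE 0.21, adjusted p = 0.00662) for sh4 and −0.68 (SE 0.21, adjusted p = 0.110) for sh8. The call of both hairpins together was lost without any 1 library other than the first sh8 library, with adjusted p between 0.0636 and 0.182, and without the variance trend of the fit (adjusted p = 0.0805), and the sh4 call was lost without the second sh4 library (−0.82, adjusted p = 0.0772). Both hairpins were compared with the same control libraries, and in bulk RNA fewer cells that express a gene cannot be told apart from less RNA per cell.

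The cells carried their defining markers. All 10 melanocytic markers were detected, with a summed level of 145677 to 158535 normalized counts in the control, 60961 to 67336 with sh4 and 110259 to 112973 with sh8. Of the endothelial markers 0 of 4 were in the table. Of the leukocyte markers LYZ alone was in the table (0 to 4.19 normalized counts in the control, 337 to 492 with sh4 and 5.27 to 7.28 with sh8), and the defining gene PTPRC was not analysed here. Fibroblast markers (2 of 6 in the table, summed at 6.28 to 19.4 over all libraries) and keratinocyte markers (KRT10 alone of 5, at 133 to 206) showed no such split. The part of these marker differences in the members' values was not tested.

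The family as a whole was expressed in the control cells, over a wide range. Normalized counts grow with transcript length, so levels of different genes were compared per kilobase (kb) of annotated exon, counting every annotated exon of a gene once. BCL2A1 had the highest level, with a median of 482 normalized counts per kb over the 3 control libraries (347 to 510). MCL1 followed at 331 (305 to 392), which overlapped BCL2A1, and BCL2L1 at 292 (234 to 297), which lay below MCL1 in every library. Guardian transcripts other than BCL2 therefore stood above the effectors, BAX at 175 (133 to 179) and BAK1 at 136 (98.0 to 145), whose ranges overlapped. This order rests on annotated exon lengths, 995 bases for BCL2A1 and 6222 for MCL1, and these cells may not use every exon. Before division by length, MCL1 had the higher mean normalized count in the control, 2132 against 444 for BCL2A1. The first place of BCL2A1 is therefore not settled.

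The BH3-only members and BCL2 took the lower ranks. BID stood at 95.5 (66.3 to 101), BCL2L11 at 75.8 (58.8 to 83.3) and BCL2 at 70.9 (61.7 to 75.8) normalized counts per kb in the control, and each overlapped its neighbour. PMAIP1 at 26.8 (25.0 to 35.0) and BBC3 at 17.8 (16.4 to 26.9) were the lowest, apart from BCL2 but not from each other. The long annotated exon length of BCL2, 12612 bases, includes alternative ends that these cells may not use, and a shorter transcript would raise its level per kb. The order differed with the hairpins. With sh4, BCL2L11 stood at a median level of 111 per kb, level with BAK1 at 111 and above BID at 72.2. With sh8, PMAIP1 stood at 14.6 per kb, below BBC3 at 27.1.

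**Figure D1:**
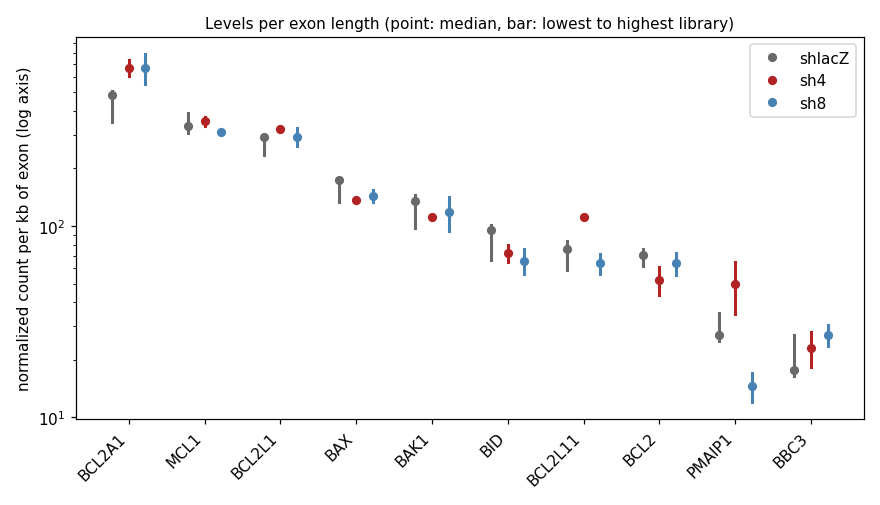
Levels of the 10 members as normalized counts per kb of annotated exon (log axis), with a point at the median and a bar from the lowest to the highest library of each group, ordered by the control. BCL2A1 stands highest with medians of 482 in the control, 671 with sh4 and 671 with sh8, and PMAIP1 is the member whose hairpin groups lie farthest apart.

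Against the control, no member passed the test for both hairpins together, and BCL2A1 came closest to it. In limma on log2(normalized count + 1), 0 of 10 members had an adjusted p under 0.05, where 4.61% of the 15420 tested genes did. At an unadjusted p under 0.05 there was 1 member, against 24.1% of all tested genes, and limma-voom on whole reads recovered from the table also called 0. The median log2 fold change of the members was −0.09, beside −0.0063 over all tested genes, with 4 members above 0 and 6 below.

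BCL2A1, the guardian gene that MITF can activate, stood at 346, 480 and 507 normalized counts in the shlacZ libraries, at 605 and 729 in the sh4 libraries and at 548 and 786 in the sh8 libraries. Every knockdown library lay above every control library, which was true of 1 of 10 members and of 10.2% of all tested genes. The means were 444 ± 86.4 (SD, n = 3) in the control and 667 ± 110 (SD, n = 4) with knockdown. The log2 fold change was 0.59 (SE 0.18, adjusted p = 0.0868), a fold of 1.51, and its 95% interval ran from 0.19 to 0.99. By hairpin it was 0.60 (SE 0.21, adjusted p = 0.0672) for sh4 and 0.58 (SE 0.21, adjusted p = 0.178) for sh8, and the difference between them was 0.02 with an interval from −0.50 to 0.53. The first shlacZ library gave the lowest value, and without it the log2 fold change for both hairpins was 0.42 (adjusted p = 0.158). That library was the lowest of the control in 7 of the 10 members. BCL2A1 passed when the mean of both hairpins was taken from the fit with 3 groups (adjusted p = 0.0471).

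The other guardians did not pass in any comparison. BCL2, the founding member, had 894, 956 and 778 normalized counts with shlacZ, 772 and 551 with sh4 and 912 and 703 with sh8. Both sh4 libraries lay below all control libraries, the first only just, while sh8 overlapped the control. Its log2 fold change was −0.42 (SE 0.18, adjusted p = 0.127) with sh4 and −0.12 (SE 0.18, adjusted p = 0.764) with sh8, and the intervals were −0.83 to −0.01 and −0.53 to 0.28. BCL2L1 had 983, 1227 and 1246 with shlacZ, 1307 and 1397 with sh4 and 1097 and 1362 with sh8. The log2 fold change of BCL2L1 was 0.24 (interval −0.10 to 0.57) with sh4 and 0.09 (−0.24 to 0.43) with sh8.

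MCL1, the short-lived guardian that NOXA binds, was the most precisely measured member. It had 1898, 2062 and 2437 normalized counts with shlacZ, 2072 and 2309 with sh4 and 1873 and 1998 with sh8, with all groups overlapping the control. Its log2 fold change lay between −0.25 and 0.34 with sh4 and between −0.43 and 0.16 with sh8 (95% intervals around 0.04 and −0.13). For both hairpins together the interval ran from −0.33 to 0.24.

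Neither effector passed. BAX had 345, 451 and 464 normalized counts with shlacZ, 365 and 340 with sh4 and 344 and 397 with sh8, a log2 fold change of −0.21 (SE 0.15, adjusted p = 0.432) for both hairpins. BAK1 had 217, 301 and 320 with shlacZ, 237 and 253 with sh4 and 208 and 314 with sh8, a log2 fold change of −0.14 (SE 0.20, adjusted p = 0.706). In both genes the knockdown libraries overlapped the control, whose first library was its lowest. The 95% intervals were −0.54 to 0.13 for BAX and −0.57 to 0.30 for BAK1, so that a moderate fall of either effector was not detectable with this number of libraries.

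**Figure D2:**
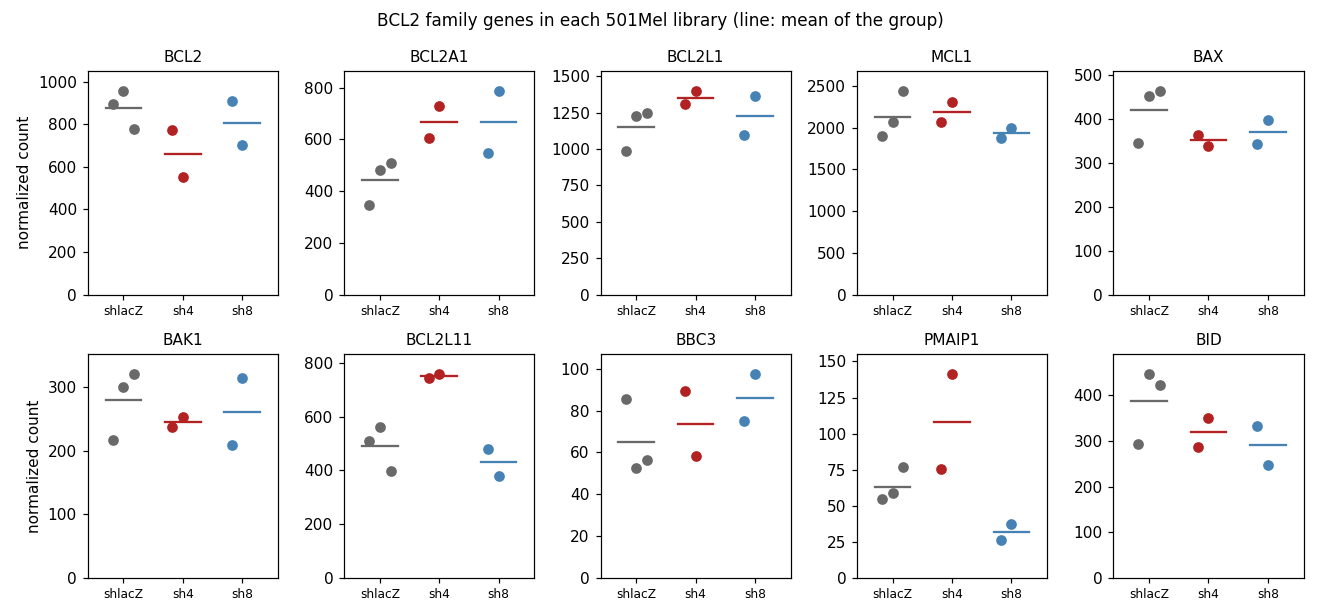
Normalized counts of the 10 members in each library, with shlacZ (n = 3), sh4 (n = 2) and sh8 (n = 2) in grey, red and blue, a point per library and a line at the group mean. BCL2A1 is above the control in all 4 knockdown libraries, BCL2L11 is 744 and 758 in the sh4 libraries, and PMAIP1 is 26.4 and 37.3 in the sh8 libraries.

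The members that passed a test were BH3-only genes, and they separated sh4 from sh8. Against the control, sh4 called 1 of 10 members, where 22.5% of all tested genes were called and 10.5% were called as higher. The members' count stands below the first share and near the second. With sh8, 0 of 10 members passed in limma, where 2.92% of all tested genes did, with 2 members at an unadjusted p under 0.05 (18.5% of all tested genes) and 0 by limma-voom. Tested directly, sh4 and sh8 differed in 2 of 10 members, both higher with sh4, where 7% of all tested genes differed and 3.67% were higher with sh4. This last comparison does not use the control means, although the control libraries enter the shared spread. PMAIP1 alone also exceeded an absolute log2 fold change of 1.

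BCL2L11 encodes BIM, which binds every guardian and can activate the effectors directly. It had 511, 561 and 397 normalized counts with shlacZ, 744 and 758 with sh4 and 480 and 380 with sh8. Both sh4 libraries lay above all others and close to each other, and the sh8 libraries overlapped the control or fell just below it. The log2 fold change was 0.63 (SE 0.18, adjusted p = 0.0299) with sh4, a fold of 1.55, −0.18 (SE 0.18, adjusted p = 0.628) with sh8, and 0.81 (SE 0.19, adjusted p = 0.0349) between sh4 and sh8. The sh4 call was lost without the third shlacZ library (0.49, adjusted p = 0.0990), the first sh4 library (0.64, adjusted p = 0.138) or the second (0.62, adjusted p = 0.144). The difference between hairpins was lost without any 1 of the 4 hairpin libraries, at values of 0.65 to 0.98 and adjusted p of 0.0841 to 0.199. Without the variance trend neither passed (adjusted p = 0.0739 with sh4 and 0.0959 between hairpins).

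PMAIP1 encodes NOXA, a BH3-only protein that pairs mainly with MCL1 and BFL1, and it was the member that differed most between the hairpins. It had 54.7, 58.7 and 76.6 normalized counts with shlacZ, 75.7 and 141 with sh4 and 26.4 and 37.3 with sh8. The sh8 libraries lay below all control libraries, and the sh4 libraries reached from the top of the control range to well above it. Between sh4 and sh8 the log2 fold change was 1.69 (SE 0.36, adjusted p = 0.0221), a fold of 3.22. Against the control, neither sh4 (0.71, SE 0.33, adjusted p = 0.150) nor sh8 (−0.97, SE 0.33, adjusted p = 0.152) passed. PMAIP1 rested on few reads, 20 and 41 in the sh8 libraries and 67 and 189 in the sh4 libraries. Without the second sh4 library the difference between hairpins was 1.24 (adjusted p = 0.210), without the first sh8 library 1.45 (adjusted p = 0.154) and without the second sh8 library 1.93 (adjusted p = 0.0572). It also missed the threshold without the variance trend (adjusted p = 0.0560).

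The remaining BH3-only members did not pass in any comparison. BBC3, the p53-responsive PUMA gene, had 85.7, 52.4 and 56.5 normalized counts with shlacZ, 89.2 and 58.2 with sh4 and 75.1 and 97.4 with sh8, so that its spread within a group was as wide as the differences between groups. BID, whose protein is cleaved by caspase 8 to link death receptors to mitochondria, had 293, 446 and 422 with shlacZ, 287 and 352 with sh4 and 333 and 248 with sh8. Its log2 fold change was −0.33 (SE 0.19, adjusted p = 0.317) for both hairpins, with an interval from −0.76 to 0.09.

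**Figure D3:**
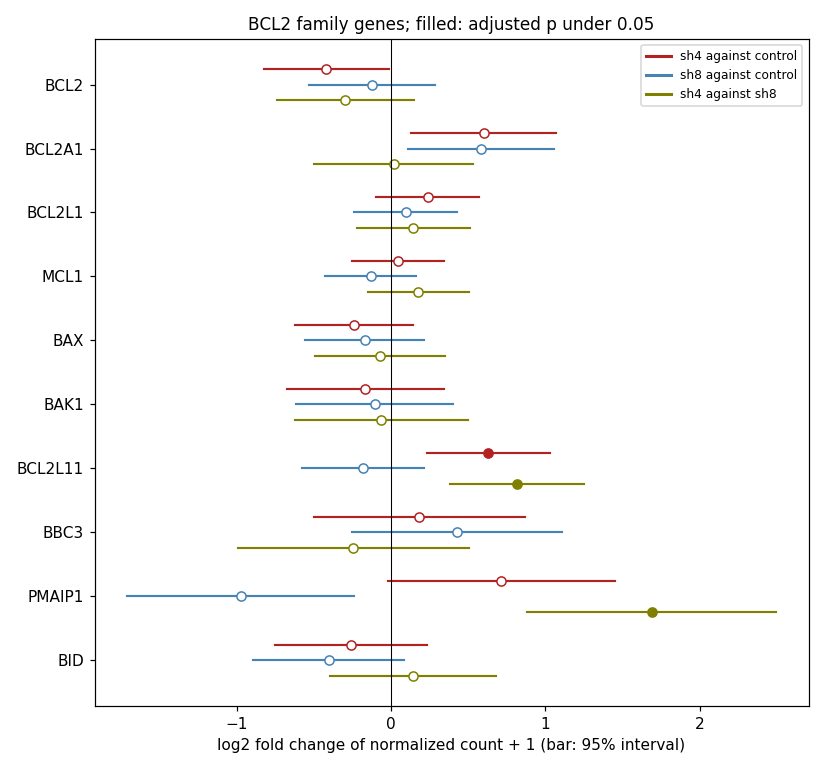
Log2 fold change of normalized count + 1 for each member with its 95% interval, for sh4 against control (red), sh8 against control (blue) and sh4 against sh8 (olive), with filled points where the adjusted p is under 0.05. The filled points are BCL2L11 with sh4 (0.63) and between hairpins (0.81), and PMAIP1 between hairpins (1.69), while the sh4 and sh8 values of BCL2A1 lie side by side at 0.60 and 0.58.

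Because members act by binding each other, the ratio of a guardian to a BH3-only gene was taken within each library, where it does not depend on how the library was scaled. The pairs were chosen with results known, and no test was run on these ratios. BCL2 to BCL2L11 was 1.75, 1.70 and 1.96 with shlacZ, 1.04 and 0.727 with sh4 and 1.90 and 1.85 with sh8. The sh4 libraries lay below all others, and the sh8 libraries fell inside the range of the control. BCL2L1 to BCL2L11 also ran lower with sh4 (1.76 and 1.84) than in the control (1.92 to 3.14), and so did MCL1 to BCL2L11 (2.78 and 3.05 against 3.67 to 6.14). All of these ratios are taken over BCL2L11, the member called higher with sh4, so they are not results separate from that call.

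MCL1 to PMAIP1 separated all groups. It was 34.7, 35.2 and 31.8 with shlacZ, 27.4 and 16.4 with sh4 and 71.1 and 53.5 with sh8. BCL2A1 to PMAIP1 stood apart only with sh8, at 20.8 and 21.1, against 6.32 to 8.18 in the control and 8 and 5.17 with sh4. Both ratios carry the values of PMAIP1 and its few reads, and are not separate from them. Among guardians, BCL2A1 to MCL1 was 0.182, 0.233 and 0.208 with shlacZ, 0.292 and 0.316 with sh4 and 0.293 and 0.394 with sh8, so both hairpins lay above the control. That ratio carries the values of BCL2A1, which did not pass against the control in the main fits, and is not separate from them. BCL2 to BAX, the classical survival ratio, overlapped between groups, at 1.68 to 2.59 in the control, 1.62 to 2.12 with sh4 and 1.77 to 2.65 with sh8.

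**Figure D4:**
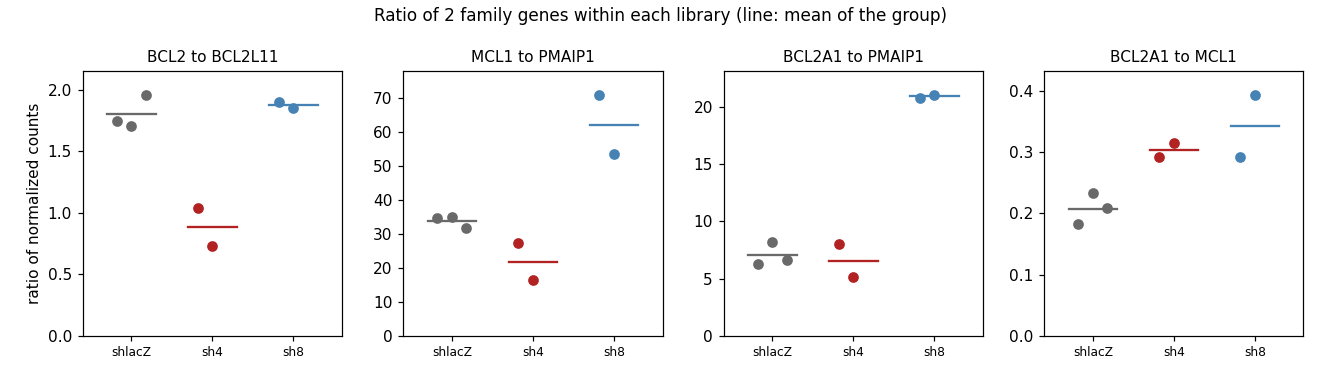
Ratios of the normalized counts of 2 family genes within each library, with a point per library and a line at the group mean. BCL2 to BCL2L11 is lowest with sh4 (0.727 and 1.04), MCL1 to PMAIP1 and BCL2A1 to PMAIP1 are highest with sh8, and BCL2A1 to MCL1 is above the control with both hairpins.

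Beyond the 10 members, the family gene with the largest change against the control among those that passed was BMF, a BH3-only gene whose protein is held at the cytoskeleton until stress or loss of attachment. BMF had 193, 144 and 160 normalized counts with shlacZ, 730 and 744 with sh4 and 332 and 495 with sh8. All knockdown libraries lay above all control libraries, and sh4 above sh8. It rose by a log2 fold change of 1.73 (SE 0.27, adjusted p = 0.0123) with both hairpins, 2.16 (SE 0.20, adjusted p = 0.000155) with sh4 and 1.30 (SE 0.20, adjusted p = 0.0111) with sh8, and was higher with sh4 than with sh8 by 0.86 (SE 0.22, adjusted p = 0.0471). The call for both hairpins was lost without the second (1.63, adjusted p = 0.0779) or the third shlacZ library (1.71, adjusted p = 0.0565), and that for sh8 without the second sh8 library (1.01, adjusted p = 0.129). Without the variance trend the call with sh4 alone passed, and the others gave adjusted p of 0.0523 (both hairpins), 0.0700 (sh8) and 0.108 (between hairpins). The difference between hairpins was lost without any 1 library other than the first shlacZ or the second sh8 library, at values of 0.57 to 0.87 and adjusted p of 0.0535 to 0.291. Of 10 other family genes tested, BMF alone passed for both hairpins and for sh8, where 4.61% and 2.92% of all tested genes were called. With sh4 BOK, a BAX-like effector, passed as well, from 72.2, 83.8 and 109 normalized counts in the control to 181 and 158 (0.95, SE 0.27, adjusted p = 0.0335), a call lost without the second shlacZ library or either sh4 library (0.85 to 1.05, adjusted p of 0.0849 to 0.204), under quantile normalization (adjusted p = 0.0517) and without the variance trend (adjusted p = 0.0596).

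Outside the family, transcripts of the death machinery moved in both directions with sh4. Of 12 apoptosome and caspase genes tested, 2 rose and 4 fell with sh4, 0 rose and 2 fell with both hairpins together, and 0 passed with sh8. Those called with sh4 made up 50% of the list, against 22.5% of all tested genes, and the median log2 fold change with sh4 was −0.0036, where that of all tested genes was −0.0076. This list and those below were written with earlier results of these data known, so their shares are a description and no test. CYCS, which encodes cytochrome c, fell from between 4441 and 5317 normalized counts in the control to 2421 and 3272 with sh4 (−0.79, adjusted p = 0.00622). CASP9, the initiator caspase of the apoptosome, rose from between 142 and 183 normalized counts to 315 and 275 with sh4 (0.87, adjusted p = 0.00836). CASP8, the initiator caspase of the death receptors, rose too, from between 307 and 381 to 494 and 577 (0.66, adjusted p = 0.0156). DFFB, the nuclease that cuts DNA in apoptosis, its inhibitor DFFA and PARP1 fell by 0.71, 0.62 and 0.41 on the log2 scale with sh4, and CYCS and DFFA were the genes that fell with both hairpins together (−0.65 and −0.54). With both hairpins the fall of CYCS was lost without any 1 library other than the first sh8 library (−0.72 to −0.54, adjusted p of 0.0531 to 0.197) and without the variance trend (adjusted p = 0.109). With sh4 the calls of CYCS (−0.58, adjusted p = 0.0728) and CASP9 (0.78, adjusted p = 0.0899) were lost without the first sh4 library and that of DFFB without shlacZ library 2 or 3 or either sh4 library (−0.78 to −0.64, adjusted p of 0.0568 to 0.134). The call of CASP8 was lost without any of the same 4 libraries (0.55 to 0.77, adjusted p of 0.0502 to 0.133).

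XIAP, an inhibitor of caspases, rose from between 621 and 645 normalized counts to 911 and 1034 with sh4 (0.62, adjusted p = 0.00697) and was the 1 gene to pass of 8 tested among inhibitors of apoptosis and their antagonists (12.5%, against 22.5% of all tested genes called with sh4). In the death receptor pathway, 3 of 8 tested genes rose with sh4 (37.5%, where 10.5% of all tested genes rose) and 0 fell. They were TNFRSF1A (0.72, adjusted p = 0.0397), RIPK1 (0.57, adjusted p = 0.0272) and CFLAR (0.70, adjusted p = 0.00876), the last an inhibitor of caspase 8 activation. Of 9 mitochondrial partners of the family, VDAC1 alone passed with sh4 (−0.66, adjusted p = 0.0125), or 11.1% of the list. Among 8 genes for the turnover of MCL1 and BIM, the deubiquitinase gene USP13 rose (0.41, adjusted p = 0.0315) and the ubiquitin ligase gene MARCHF5 fell (−0.49, adjusted p = 0.0496) with sh4, together 25% of the list. The shares of the inhibitor and partner lists stand below the 22.5% of all tested genes, and that of the turnover list near it. None of the genes of these last 4 lists passed with sh8 or with both hairpins together. Each of these 7 calls was lost without 1 library, for XIAP the second sh4 library (0.53, adjusted p = 0.0748), for VDAC1 the first (−0.45, adjusted p = 0.132), and for CFLAR either of them (0.65 to 0.75, adjusted p of 0.0522 to 0.0784). RIPK1 was lost without the third shlacZ or either sh4 library (0.52 to 0.60, adjusted p of 0.0867 to 0.154). TNFRSF1A was lost without the second shlacZ library or any 1 hairpin library (0.60 to 0.84, adjusted p of 0.0504 to 0.224), and USP13 without the third shlacZ library or any 1 hairpin library (0.40 to 0.41, adjusted p of 0.0532 to 0.139). MARCHF5 was lost without any 1 library other than the first shlacZ library (−0.63 to −0.36, adjusted p of 0.0702 to 0.306). Without the variance trend the sh4 calls of TNFRSF1A, RIPK1, VDAC1, USP13 and MARCHF5 missed the threshold (adjusted p of 0.0550 to 0.104). With sh8 left out of the fit TNFRSF1A (adjusted p = 0.0550), USP13 (adjusted p = 0.0534) and MARCHF5 (adjusted p = 0.0704) missed it, and MARCHF5 missed it also with a pseudocount of 0.5, without a minimum mean, under an equal total and in limma-voom (adjusted p of 0.0502 to 0.0583).

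**Figure D5:**
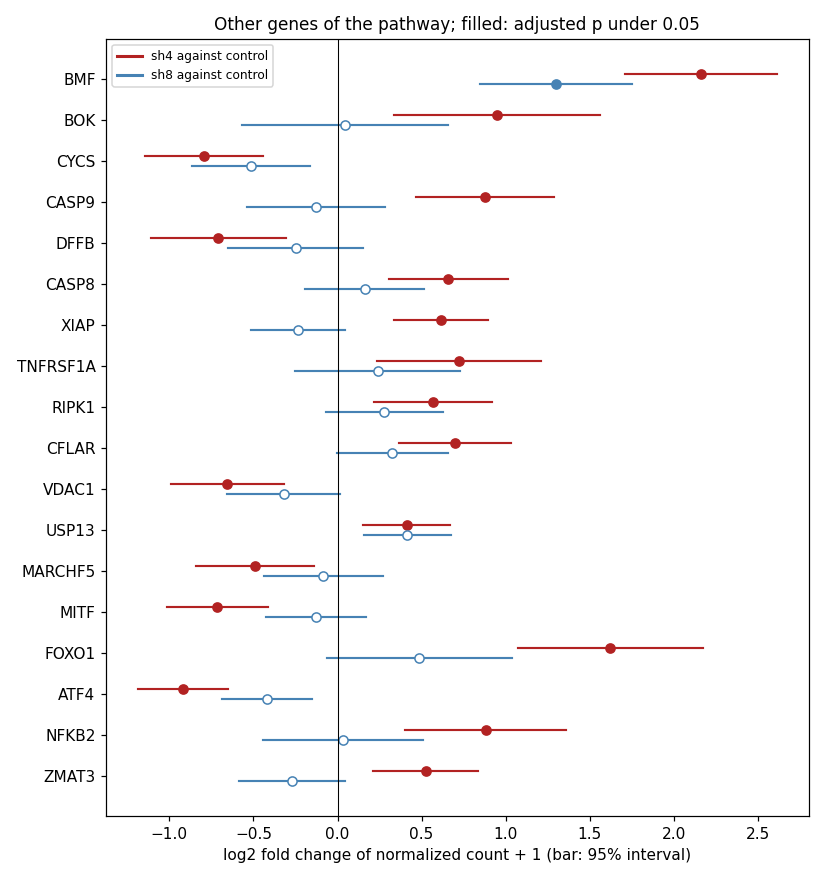
Log2 fold change of normalized count + 1 with its 95% interval for other genes of the pathway, for sh4 (red) and sh8 (blue) against the same control libraries, filled where the adjusted p is under 0.05. BMF is the gene with filled points for both hairpins (2.16 and 1.30), and all 18 genes drawn are filled for sh4 because the rule for naming them asked for a call with sh4 or with both hairpins.

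Known transcriptional regulators of the members were measured in the same libraries. MITF, the activator of BCL2 and BCL2A1, had 22076, 20552 and 17326 normalized counts with shlacZ, 12619 and 11635 with sh4 and 19031 and 17418 with sh8. It fell with sh4 (−0.71, SE 0.13, adjusted p = 0.00483) and not detectably with sh8 (−0.13, SE 0.13, adjusted p = 0.658). The MITF call with sh4 was lost without the second sh4 library (−0.66, adjusted p = 0.0567). With sh4, where MITF fell, neither BCL2A1 (0.60, adjusted p = 0.0672) nor BCL2 (−0.42, adjusted p = 0.127) passed. FOXO1, of the forkhead factors that can activate BCL2L11, rose with sh4 from 375, 228 and 325 to 852 and 1025 (1.62, SE 0.25, adjusted p = 0.00173) and had 336 and 535 with sh8 (0.48, SE 0.25, adjusted p = 0.333). ATF4, a stress factor that can drive PMAIP1, fell with sh4 (−0.92, adjusted p = 0.000818) and with both hairpins together (−0.67, adjusted p = 0.0474), while sh8 alone gave −0.42 (adjusted p = 0.0947). The fall of ATF4 with both hairpins was lost without any 1 library of shlacZ or sh4 (−0.69 to −0.55, adjusted p of 0.0705 to 0.193), under scaling by trimmed mean of M values (adjusted p = 0.0504) or quantiles (adjusted p = 0.0628), in limma-voom (adjusted p = 0.0521) and without the variance trend (adjusted p = 0.117).

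Of 14 regulators tested, 4 rose and 2 fell with sh4, namely FOXO1, NFKB2 (0.88, adjusted p = 0.0161), FOXO4 (0.66, adjusted p = 0.0281) and STAT3 (0.62, adjusted p = 0.0118) upwards, and MITF and ATF4 downwards. They made up 42.9% of the list, which was written with earlier results of these data known, against 22.5% of all tested genes. With sh8 NFKB1 alone passed, and it fell (−0.91, adjusted p = 0.0110). Of 12 p53 target genes tested, 2 rose with sh4, ZMAT3 (0.52, adjusted p = 0.0247) and the scarce TP53I3 (1.03 to 9.43 normalized counts in the control, 31.6 and 38.8 with sh4, adjusted p = 0.0184), and 1 fell with sh8, AEN (−0.74, adjusted p = 0.0370). These shares of the p53 list, 16.7% with sh4 and 8.33% with sh8, compare with 22.5% and 2.92% of all tested genes. Without 1 library, the second shlacZ or either sh4 library for NFKB2 (0.73 to 0.88, adjusted p of 0.0512 to 0.101) and the second or the third shlacZ or second sh4 library for ZMAT3 (0.35 to 0.52, adjusted p of 0.0667 to 0.203), these calls were lost, and that of ZMAT3 also without the variance trend (adjusted p = 0.0672). FOXO1 and ATF4 passed with sh4 without any 1 library. The medians of the p53 list were 0.15 with sh4 and −0.19 with sh8. Whether any of these regulators had a part in the members' values was not tested.

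Genes whose pattern over the 7 libraries was most like that of BCL2A1 were ICAM1, SIK2 and LITAF, of 11372 genes compared. After each gene's own mean was subtracted, they differed from BCL2A1 by a root mean square of 0.06, 0.09 and 0.09 on the log2 scale, where BCL2A1 itself varied by 0.37. Near to BCL2 were DPH7 and ANKRD11, at 0.07 and 0.08 against 0.25 for BCL2 itself. No test was run on this likeness.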

How the data were processed

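RNA of 7 libraries of 501Mel cells was depleted of ribosomal RNA and sequenced from a stranded kit. The authors trimmed reads with Cutadapt, aligned them to hg38 with STAR, quantified genes with Salmon and deposited 1 table of normalized counts, each a count divided by the DESeq2 size factor of its library. Tool versions are not given in the sources used here. Such scaling hides a change that most genes share. Of the values, 100% were whole multiples (within 0.1 read) of the value of 1 read, which gave the reads counted in genes per library.

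Values were tested with limma 3.58.1 (R 4.3.3) on log2(normalized count + 1) with a variance trend. A minimum mean of 10 left 15420 genes, over which two-sided p-values were adjusted by Benjamini-Hochberg. Both hairpins together (n = 4) were set against shlacZ (n = 3) in a 2-level fit. The other comparisons used 1 fit of the 3 groups with a shared spread. The code was tested on simulated data. Labels do not say whether replicates were separate cultures, so p-values measure the spread between these samples, and they do not tie sh4 and sh8 to the hairpin sequences of the study.

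Members and gene lists were chosen with earlier results of these data known, and motifs and printed stretches after the sequences were seen. Named were the members, GRASLND, MITF and, per list, at most the 4 genes with the largest change that had a mean of at least 50 and passed with sh4 or both hairpins. DFFA, PARP1, FOXO4, STAT3, NFKB1, TP53I3, AEN, LYZ, CASP6, TNFRSF10B, MDM2, TYR and SLC45A2 were named after their values were seen and were not followed through the alternatives. Genes most like BCL2A1 and BCL2 had the smallest root mean square difference over the 7 libraries, at a mean of at least 50. Some genes are not reported here. Counts per gene do not separate isoforms with opposing roles, as BCL2L1 and MCL1 have. In GENCODE, BCL2L1 shares 1735 of 4197 exon bases with the antisense gene ABALON, BCL2L11 shares 727 of 6742 with the antisense gene MIR4435-2HG, and MCL1 shares 328 of 6222 with ADAMTSL4-AS1 on its own strand.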

Additional observations from a re-analysis of the deposited data

Results flagged for a closer look

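Members and named pathway genes were examined for a sample far from the others in a group of 4 or more and for a difference between sh4 and sh8 that passed its own test. In the pooled knockdown libraries, 0 of 10 members and 0 of 23 other named genes had a library apart from the rest. The pool joins the libraries of both hairpins, and a difference between hairpins widens its range. The check therefore cannot show whether the libraries of 1 hairpin lie apart from each other. The differences between hairpins below rest on 2 libraries each, and leaving out 1 library ended the call for 10 of these 13 genes, with DCT, TRPM1 and TYRP1 as the exceptions. Without the variance trend the calls of BCL2L11, PMAIP1, MITF, BMF, FOXO1, ATF4, ZMAT3 and MLANA were lost (adjusted p of 0.0560 to 0.134), and those of MITF and ATF4 also under quantile normalization and an equal total (adjusted p of 0.0686 to 0.0936). ATF4 missed the threshold in limma-voom and with a pseudocount of 0.5 as well, and BMF and ATF4 without a minimum mean (adjusted p of 0.0502 to 0.0614).

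Among the members, BCL2L11 was higher with sh4 than with sh8 by 0.81 and PMAIP1 by 1.69 on the log2 scale. Of the other family genes, BMF was higher with sh4 by 0.86. Of the caspases and their inhibitors, CASP9 was higher with sh4 than with sh8 by a log2 difference of 1.002 and XIAP was higher by 0.85. Of the regulators, FOXO1 was higher with sh4 by 1.14, MITF was lower (−0.59) and ATF4 was lower (−0.50). The p53 target ZMAT3 was higher by 0.80. The melanocytic markers DCT (−2.30), TRPM1 (−1.62), TYRP1 (−1.54) and MLANA (−1.01) were lower with sh4 than with sh8. Of all 10 melanocytic markers, 8 were lower with sh4 than with sh8 (80%, where 7% of all tested genes differed). TYR and SLC45A2 did not pass, and SLC45A2 had the higher mean with sh4 (7149 against 5783 normalized counts with sh8).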

How the results depend on the processing

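Of 1401 log2 fold changes recomputed under another setting, 1213 kept their direction and side of the threshold, 155 lost a call, 5 gained one and 28 changed sign. The count of members that passed with both hairpins went from 0 to 1 (BCL2A1) when the mean of both hairpins was taken from the fit with 3 groups. With sh4 it went from 1 to 2 under quantile normalization and under an equal total (BCL2A1 added), to 0 without the variance trend, and ranged from 0 to 1 when 1 library was left out. Between sh4 and sh8 it went from 2 to 0 without the variance trend and ranged from 0 to 2 when 1 library was left out. The cause was not tested. No scaling moved the median of all genes by 0.1 on the log2 scale.

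Correlations between the deviations of libraries with the same replicate number ran from −0.08 to 0.34. With 2 libraries per hairpin, the correlations of a hairpin's libraries with another library are mirror images. They therefore cannot decide whether the replicate numbers paired the samples. With the replicate number as a block, 1 member (BCL2A1, 0.69) passed with sh8 and 1 with sh4, BCL2A1 in place of BCL2L11. Only shlacZ has a replicate 3, so the block takes shlacZ library 3 out of each comparison with the control. Log2 fold changes against the control under the block equal those without that library, as for GRASLND (−0.90) and BMF (1.71) with both hairpins. The adjusted p differ between these fits, but the block is no separate check of these log2 fold changes. The block also ended the calls for both hairpins of GRASLND, BMF, CYCS and ATF4 (adjusted p of 0.111 to 0.207) and the sh4 calls of RIPK1, MARCHF5, USP13 and ZMAT3 (adjusted p of 0.0516 to 0.0584). The log2 fold changes that turned positive were those of MCL1 (0.056) and PMAIP1 (0.012) with both hairpins and BAK1 with sh8 (0.0027). MCL1 with both hairpins was also positive under quantile normalization (0.033) and under an equal total (0.014), as were BAX (0.010) and BAK1 (0.018) between sh4 and sh8 under an equal total. Without 1 library at a time, MCL1 ranged from −0.12 to 0.056 with both hairpins and from −0.035 to 0.14 with sh4, PMAIP1 from −0.56 to 0.23 with both hairpins and BBC3 from −0.12 to 0.49 with sh4. With sh8, BCL2 ranged from −0.31 to 0.064, BCL2L1 from −0.062 to 0.25 and BAK1 from −0.40 to 0.19. Between sh4 and sh8, BCL2A1 ranged from −0.24 to 0.28, BCL2L1 from −0.012 to 0.30, BAX from −0.17 to 0.033, BAK1 from −0.36 to 0.23, BBC3 from −0.55 to 0.060 and BID from −0.070 to 0.36. None of the log2 fold changes given here as a range passed under any setting. With 2 libraries per hairpin, the direction of a member near 0 is not settled, and PMAIP1 and BBC3 are limited further by few reads. Count models planned as alternatives were not run, because the decimal commas of the table kept it from being declared as counts.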

Other observations

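Some genes of the pathway separated the hairpins without being named by the rule. CASP6, an executioner caspase, was higher with sh4 than with sh8 by 1.43 on the log2 scale (adjusted p = 0.0154). The death receptor gene TNFRSF10B was higher by 0.59 (adjusted p = 0.0424) and MDM2, the ubiquitin ligase gene for p53, by 0.79 (adjusted p = 0.0143). NFKB1, which encodes an NF-kappaB precursor, had 971, 1240 and 1147 normalized counts with shlacZ, 1058 and 1214 with sh4 and 579 and 609 with sh8. The sh8 libraries lay below all others, and the difference between sh4 and sh8 was 0.93 (adjusted p = 0.00779).

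The melanocytic markers, which include MITF, moved with sh4. Of 10 tested, 8 fell with sh4 (80%, where 22.5% of all tested genes were called) and 0 passed with sh8 (2.92% of all tested genes), with medians of −1.23 and −0.43 on the log2 scale. The 2 that did not pass with sh4 were TYR and SLC45A2. The mean of TYR was 8803 normalized counts in the control, 9736 with sh4 and 10257 with sh8. That of SLC45A2 was 7056 in the control, 7149 with sh4 and 5783 with sh8. Their part in the members' values was not tested.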
